A study of Mus musculus with 6 samples.

Results

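Hsp90ab1 and Ppia are a pair of protein folding genes measured in mouse cortex after sham surgery or after an experimental stroke. They were chosen by the RefSeq accessions on the array, NM_008302.3 for Hsp90ab1 and NM_008907.1 for Ppia, and make up 2 of the 15 genes that can be named by accession among 60915 probes. Each has 1 probe, spotted 20 times on every array. The samples were cortex RNA from 8-week-old male mice: 3 samples of the sham group and 3 of mice killed 12 h after the reperfusion that ended a transient middle cerebral artery occlusion (tMCAO), a surgical model of ischemic stroke in which blood flow to the cortex is blocked and then restored. For the sham group no time of killing is recorded here. No strain, transgene or drug is named in the labels used here for either group. They place the dissection in the ischemic cortex of the tMCAO mice and describe 3 independent experiments per group. Per the labels, ribosomal RNA was depleted, the rest was amplified from random primers with a Cy3 label, and each sample was hybridised to 1 single-colour Agilent array.

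Hsp90ab1 encodes the constitutive cytosolic form of the chaperone Hsp90. Hsp90 uses ATP to bring kinases, steroid receptors and other client proteins to their active shape. It works with the chaperone Hsp70 and with co-chaperones such as Cdc37. Ppia encodes cyclophilin A, an abundant cytosolic enzyme that turns the peptide bond before proline during folding. It is also the intracellular target of cyclosporin, and it can be released by stressed cells and act as an inflammatory signal. Both genes are highly expressed in brain, and Ppia is widely used as a reference gene in measurements of RNA. Of 29 protein folding genes looked for by name, these 2 were the only ones named on the array, so the inducible chaperones and the other cyclophilins could not be examined. None of 20 marker genes of neurons, glia, vessels and blood leukocytes was named either, so the tissue label was not checked against markers and the cell makeup of the samples was not tested. Probe sequences were not used here. Transcripts of close relatives, such as the inducible cytosolic Hsp90 and the many processed copies of Ppia, may bind the same probes, and this was not assessed.

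The arrays differed in brightness. The 75th percentile of signal over all spots that were not controls ranged from 537.2 intensity units on tMCAO replicate 3 to 934.6 on tMCAO replicate 1, and the sham arrays lay between 555.5 and 705.5. Every level below is therefore a log2 signal minus the log2 of this percentile, unless another scale is named, so that 0 is the 75th percentile of the array and 1 unit is a doubling. Of the 120 spots of Hsp90ab1 and the 120 of Ppia over the 6 arrays, 0 were saturated and each was well above background. Ppia was read high on the scanner's range, with a brightest spot at 43.2% of the saturation value on tMCAO replicate 2 and at 25.1% on tMCAO replicate 3. With 3 arrays in a group, precision is limited by their number.

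Neither gene passed the test for a difference between tMCAO and sham. Hsp90ab1 was 0.16 log2 units higher and Ppia 0.11 log2 units lower in tMCAO than in sham on average, and both differences were carried mainly by tMCAO replicate 1, which had the highest Hsp90ab1 and the lowest Ppia of the 6 arrays. In bulk tissue, fewer cells of a type and less RNA per cell cannot be told apart. Over all probes on the array, 630 of 44292 tested probes (1.42%) passed limma's test at an adjusted p under 0.05, and 0 of the 2 genes did, nor did either reach an unadjusted p under 0.05. The count of probes was 116, 237 and 157 without sham replicates 1, 2 and 3, 60 and 333 without tMCAO replicates 1 and 2, and 847 without tMCAO replicate 3. Without any 1 of these arrays neither gene passed.

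For the chaperone gene Hsp90ab1, the mean signal of the spots used for replicates 1, 2 and 3 was 34073, 44107 and 47793 intensity units in sham. In tMCAO it was 79996, 66170 and 36653. After scaling, its level was 5.94, 6.19 and 6.08 log2 units in sham and 6.42, 6.17 and 6.09 in tMCAO. tMCAO replicate 1 was high and sham replicate 1 low, while tMCAO replicates 2 and 3 fell inside the range of the sham arrays, so the groups overlapped. The sham mean was 6.07 ± 0.12 log2 units and the tMCAO mean 6.23 ± 0.17 (SD, n = 3 each). tMCAO exceeded sham by 0.16 ± 0.13 log2 units (SE), or 1.12-fold, with a 95% interval from -0.14 to 0.46, which runs from 0.905-fold to 1.38-fold (limma, adjusted p = 0.528). A difference of at least this size in either direction was seen in 54.5% of the tested probes.

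For the cyclophilin gene Ppia, the mean signal in the same order was 207294, 215943 and 255332 intensity units in sham. In tMCAO it was 282247, 328610 and 191841. After scaling, its level was 8.54, 8.48 and 8.50 log2 units in sham and 8.24, 8.48 and 8.48 in tMCAO. A single array stood apart: tMCAO replicate 1 was 0.27 log2 units below the sham mean, and the other two tMCAO arrays lay within 0.03 of it, next to the sham arrays. The sham mean was 8.51 ± 0.03 log2 units and the tMCAO mean 8.40 ± 0.14 (SD, n = 3 each). The difference had a log2 value of -0.11 ± 0.12 (SE), a 1.08-fold lower level, with a 95% interval from -0.37 to 0.16, or 0.773-fold to 1.12-fold (limma, adjusted p = 0.632). In 68.4% of tested probes the difference was at least as large. The groups overlapped for both genes, while they did not for 24.6% of the tested probes. This overlap rested on 1 array: without sham replicate 2, neither gene's groups overlapped, with differences of 0.22 for Hsp90ab1 and -0.12 for Ppia (limma, adjusted p = 0.526 and 0.699). The share of all tested probes without overlap was not computed without this array, and groups of fewer arrays separate more easily. The separation was also narrow. For Hsp90ab1 the nearest arrays were sham replicate 3 at 6.082 log2 units and tMCAO replicate 3 at 6.092. For Ppia they were sham replicate 3 at 8.499 and tMCAO replicate 2 at 8.483.

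**Figure D1:**
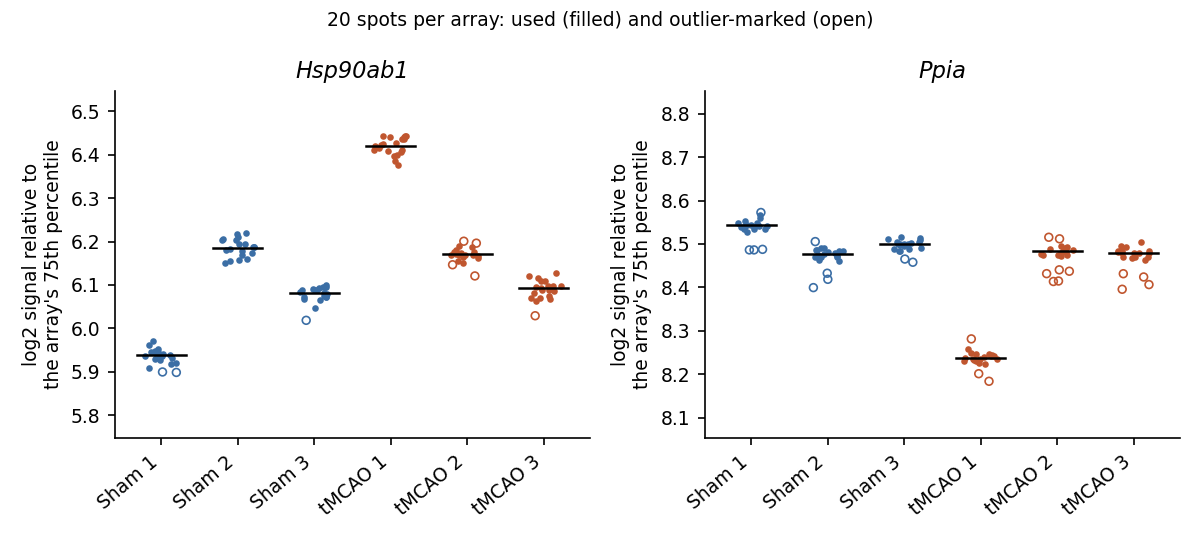
Log2 signal of every spot relative to the array's 75th percentile (vertical axis) on each of the 6 arrays (horizontal axis), for Hsp90ab1 on the left and Ppia on the right, with sham in blue and tMCAO in orange. Filled points are spots used, open points are spots with an outlier mark, and bars are the means of the spots used. The spots of 1 array lie close together, and tMCAO replicate 1 stands apart from the other arrays, at 6.42 for Hsp90ab1 and 8.24 for Ppia.

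The 20 spots per array give the precision with which each array was read. The SD between the spots used within an array ranged from 0.010 to 0.021 log2 units for Hsp90ab1 and from 0.0078 to 0.011 for Ppia. The SD between the 6 arrays was 0.16 log2 units for Hsp90ab1, 9.49 times the median spot SD, and 0.11 for Ppia, 11.5 times. On tMCAO replicate 1 the standard error over spots was 0.0045 for Hsp90ab1 and 0.0022 for Ppia, small beside its distance from the other arrays. Repeated spots share 1 labelled RNA, so the spread between arrays also holds amplification, labelling, hybridisation and scaling beside the samples, and these cannot be told apart.

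Outlier marks fell more often on Ppia. They removed 24 of its 120 spots, 19 of them below the median spot of their array, against 8 of 120 for Hsp90ab1. On tMCAO replicate 2 they left 13 of 20 spots of Ppia, the fewest for either gene on any array. Removing them raised the array mean of Ppia by at most 0.013 log2 units, on tMCAO replicate 3, and that of Hsp90ab1 by at most 0.0040, on sham replicate 1. The difference between groups was 0.16 for Hsp90ab1 and -0.11 for Ppia with these spots kept, and likewise from the spots above or below the middle row of the array alone.

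The difference between the 2 genes on the same array does not depend on how arrays are scaled by a single factor. Hsp90ab1 minus Ppia for replicates 1, 2 and 3 was -2.61, -2.29 and -2.42 log2 units in sham, and -1.82, -2.31 and -2.39 in tMCAO. Again tMCAO replicate 1 was high, and the other two tMCAO arrays lay inside the sham range. The value says nothing of which transcript is more abundant, because probes differ in how they bind. The sham mean was -2.44 ± 0.16 and the tMCAO mean -2.17 ± 0.31 (SD, n = 3 each), a difference of 0.27 log2 units toward Hsp90ab1 (two-sided exact permutation p = 0.3, where 0.1 is the smallest possible). Without tMCAO replicate 1 this difference was 0.088 log2 units (exact permutation p = 0.6). An unequal change of the 2 genes was thus not separated from the spread between arrays.

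Across the 6 arrays the 2 genes moved against each other on this scale. Arrays with more Hsp90ab1 had less Ppia (Pearson's r = -0.93, exact permutation p = 0.00556; Spearman's rho = -0.94, exact permutation p = 0.0167; n = 6). Over the 5 scales on which the relation was computed, the Benjamini-Hochberg adjusted values of these were 0.0278 for r and 0.0833 for rho (exact permutation, n = 6). With tMCAO replicate 1 and sham replicate 1 left out, which lay farthest from the median of Hsp90ab1, r was -0.65 over 4 arrays. With only tMCAO replicate 1 left out it was -0.93. Both levels share the array's 75th percentile, and the relation rested on the scale chosen. It was -0.37 with quantile normalization (exact permutation p = 0.504, adjusted 0.529) and -0.35 in the authors' deposited table (exact permutation p = 0.529, adjusted 0.529). With normexp background correction it was -0.80, with a rho of -0.26 (exact permutation p = 0.0819, adjusted 0.137, for r). With the 2 farthest arrays left out, the sign turned on these scales, to 0.87 with quantile normalization, 0.87 in that table and 0.57 with normexp. With only tMCAO replicate 1 left out, r was 0.05, 0.03 and -0.10 in the same order. The relation therefore depended on scaling and on background correction, since the normexp values were also scaled to the 75th percentile. In log2 signals with no scaling it was 0.88, where both genes follow the brightness of the array (exact permutation p = 0.025, adjusted 0.0625).

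**Figure D2:**
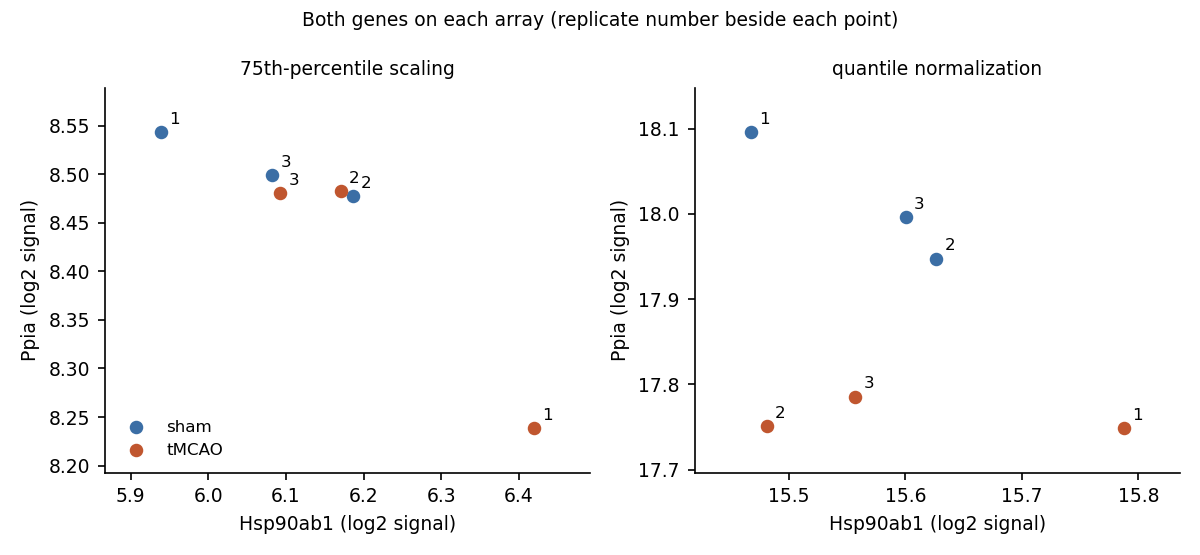
Log2 signal of Ppia (vertical axis) against Hsp90ab1 (horizontal axis) on each of the 6 arrays, with sham in blue and tMCAO in orange and the replicate number beside each point, after 75th-percentile scaling (left) and quantile normalization (right). On the left the points run downward to tMCAO replicate 1 (r = -0.93), and Ppia of tMCAO replicates 2 and 3 sits at the sham level. On the right the 3 tMCAO arrays lie below all sham arrays for Ppia, at 17.75 to 17.79 against 17.95 to 18.10.

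For Ppia, the value and the overlap of the groups depended on the scale. With quantile normalization Ppia was at 18.10, 17.95 and 18.00 log2 units in sham and at 17.75, 17.75 and 17.79 in tMCAO. Here all tMCAO arrays were below all sham arrays, and the difference was -0.25 log2 units with a 95% interval from -0.48 to -0.02 (limma, unadjusted p = 0.0349, adjusted p = 0.234). The authors' deposited table, whose normalization method none of the sources states, had a difference of -0.26 log2 units for Ppia, also without overlap (limma, unadjusted p = 0.0318, adjusted p = 0.225). Its values for Ppia lay close to the quantile ones, at 18.09, 17.94 and 17.99 in sham and 17.75, 17.74 and 17.77 in tMCAO. The 2 scales therefore do not count as separate results. Groups did not overlap for 26.0% of tested probes with quantile normalization and 26.2% in that table, so lack of overlap was common there. By limma, 1.79% of tested probes passed with quantile normalization and 1.63% in that table, and neither gene did in either. Relative to the mean of 12 other genes named by accession, Ppia also did not overlap, at 4.96, 4.89 and 4.92 log2 units in sham and 4.60, 4.87 and 4.83 in tMCAO, a difference of -0.16 (limma, adjusted p = 0.433). The share of tested probes without overlap was not computed on this scale. Its 12 genes themselves differed between groups, from -0.21 log2 units (Tuba1b) to 0.56 (B2m), so the reference is not fixed. For Hsp90ab1 quantile normalization and the authors' deposited table gave 0.04 and 0.05 log2 units, with overlap (limma, adjusted p = 0.861 and 0.855). Hsp90ab1 minus Ppia then differed between groups by 0.30 log2 units in both, without overlap (two-sided exact permutation p = 0.1, the smallest possible).

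The order of signals within each array shows where the scales part. The number of tested probes with a higher signal than Ppia for replicates 1, 2 and 3 was 88, 133 and 119 in sham, and 206, 205 and 193 in tMCAO, of 44103 probes with a value on every array. This was 0.200% to 0.302% of the probes in sham and 0.438% to 0.467% in tMCAO. Ppia thus held a lower place in the order on every tMCAO array than on any sham array, also on tMCAO replicates 2 and 3, where its scaled level matched sham. Such lack of overlap in the order was seen for 26.0% of the 44103 probes and is the same fact as that with quantile normalization, which rests on the order. The mean number was 113.3 in sham and 201.3 in tMCAO (two-sided exact permutation p = 0.1, the smallest possible). Only 8 probes were above Ppia on every tMCAO array but on none of the sham arrays, and 0 were above it on all sham arrays alone. None of the 8 was a gene named by accession. Their median difference was 0.66 log2 units, a direction that follows largely from how they were picked. Of the 8, 0 passed limma's test as higher, where 547 of 44292 tested probes did. The place in the order concerns signals of different probes and is no measure of how abundant Ppia was among transcripts.

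For Hsp90ab1 the corresponding numbers were 1463, 1324 and 1347 in sham and 1187, 1439 and 1384 in tMCAO. They overlapped (two-sided exact permutation p = 0.8). tMCAO replicate 1 had the fewest probes above Hsp90ab1. Without that array the mean number was 33.5 higher in tMCAO than in sham, whereas over all 6 arrays it was lower, with a difference of -41.3.

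**Figure D3:**
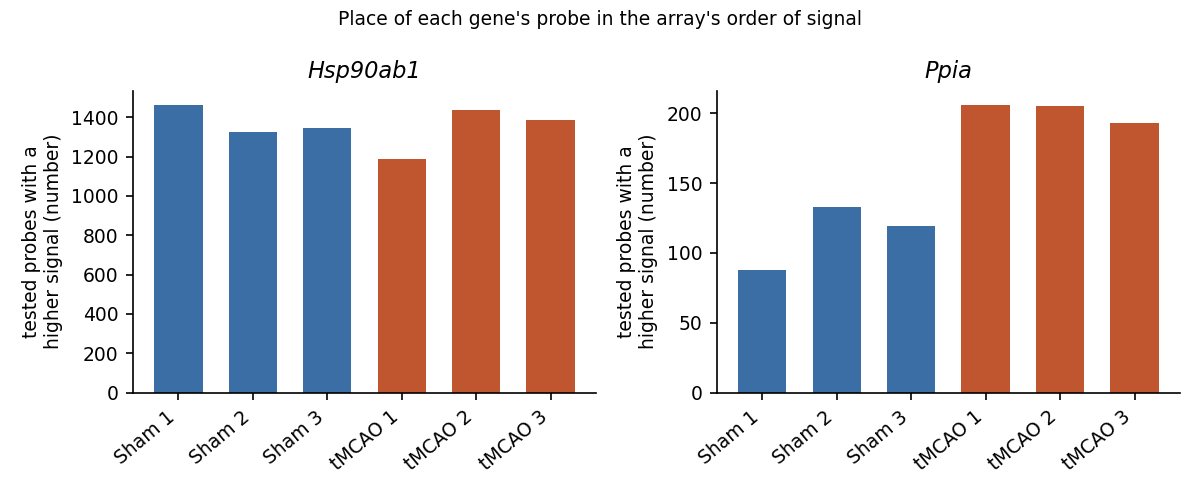
Number of tested probes with a higher signal than Hsp90ab1 (left) or Ppia (right) on each of the 6 arrays, with sham in blue and tMCAO in orange; the vertical axes start at 0 and differ in range. For Ppia the tMCAO arrays, at 193 to 206 probes, all lie above the sham arrays, at 88 to 133, while for Hsp90ab1 the groups overlap.

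Scaling set the size of both differences and, with no scaling, the direction of one. For Hsp90ab1 the difference was 0.04 log2 units with quantile normalization, 0.11 relative to the mean of 12 other genes named by accession, 0.19 with normexp background correction, 0.23 with median centring and 0.48 with no scaling. Each of these values was above 0, and none passed limma's test (adjusted p from 0.46 to 0.861). For Ppia the difference was -0.25 with quantile normalization, -0.16 relative to the 12 other genes, -0.08 with normexp, -0.04 with median centring and 0.21 with no scaling (limma, adjusted p from 0.234 to 0.891). The sign of Ppia turned only in the last of these, in which the median change of all tested probes was 0.27 log2 units, so that Ppia still lay below the median probe. With the 75th percentile the median change of all tested probes was -0.05 log2 units, which places Hsp90ab1 above and Ppia below it. With normexp the median was -0.09, and Ppia, at -0.08, was just above it.

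Single arrays also set the size. Without tMCAO replicate 1 the difference was 0.06 log2 units for Hsp90ab1 and -0.03 for Ppia, each under the value over all arrays by more than 2-fold (limma, adjusted p = 0.845 and 0.934). Without sham replicate 1 it was 0.09 for Hsp90ab1 (limma, adjusted p = 0.81). The file headers give the 6 arrays 1 scan identifier and 1 scan time, and an array code that begins with the same figure for replicates 1 and 2 of both groups and with another for replicate 3. None of the sources used here states what this figure stands for. Among the 4 arrays of the first kind, the difference was 0.23 log2 units for Hsp90ab1 and -0.15 for Ppia. Between the 2 arrays of the other kind, 1 per group, it was 0.01 and -0.02. Their part in the result was not tested beyond a fit with the code as a block, which gave 0.16 and -0.11 (limma, adjusted p = 0.516 and 0.626).

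**Figure D4:**
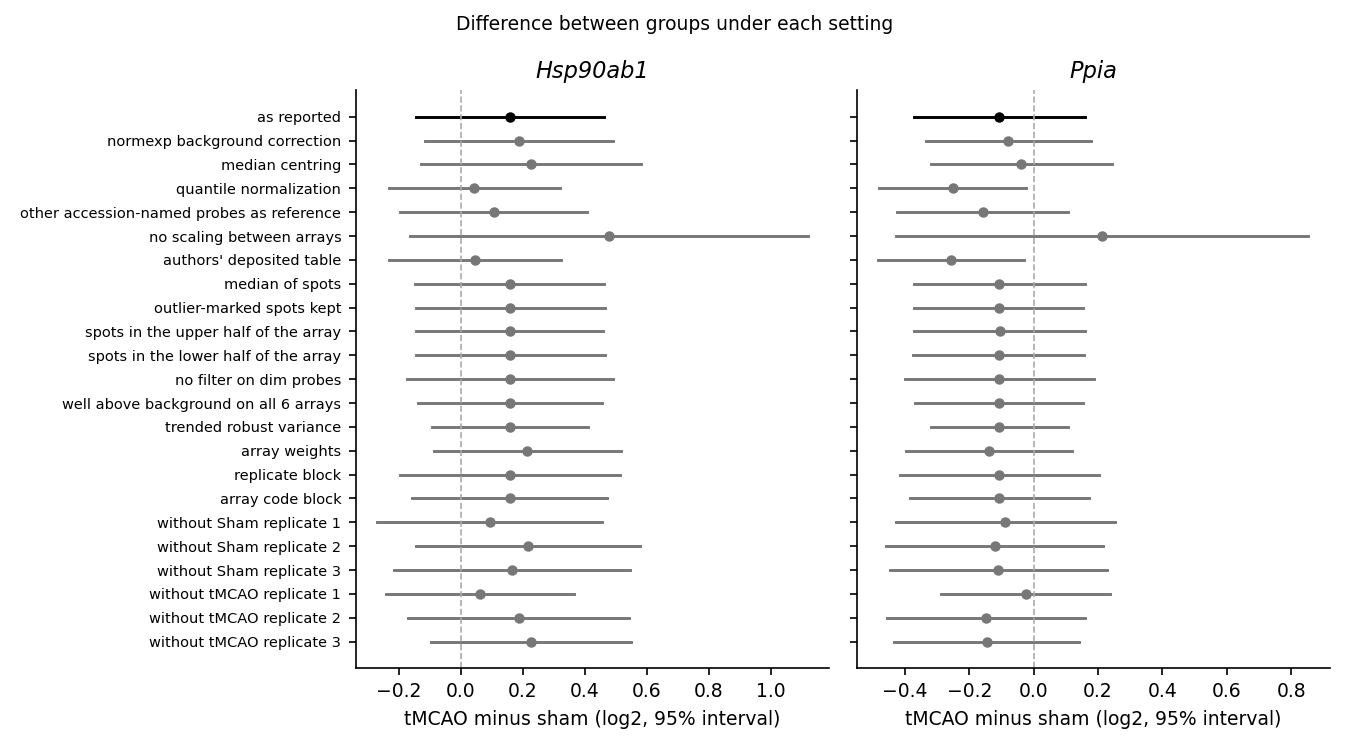
Difference between tMCAO and sham in log2 units (horizontal axis) for Hsp90ab1 (left) and Ppia (right) under each setting (vertical axis); points are the fitted differences, bars their 95% intervals from limma, and the top row in black is the value reported. All points lie above 0 for Hsp90ab1, and for Ppia all lie below 0 except the one with no scaling, at 0.21; only the intervals of Ppia with quantile normalization and in the authors' deposited table leave out 0.

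The other 13 genes named by accession showed which patterns over the arrays were like those of the 2 folding genes. These correlations are descriptions over 6 arrays, in which all levels share the array's 75th percentile, and genes were ordered by Pearson's r. Most like Ppia were the glycolytic enzyme gene Gapdh (r = 0.93, rho = 0.60) and the tubulin gene Tuba1b (r = 0.92, rho = 0.66). Gapdh was at 7.94, 7.89 and 7.81 log2 units in sham and 7.63, 7.90 and 7.85 in tMCAO, with tMCAO replicate 1 lowest, as for Ppia. Tuba1b was at 8.42, 8.41 and 8.39 in sham and 8.01, 8.37 and 8.22 in tMCAO, also lowest on tMCAO replicate 1 but below all sham arrays on each tMCAO array. Least like Ppia was Tbp, which encodes the TATA-binding protein of transcription initiation (r = -0.89, rho = -0.14).

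Most like Hsp90ab1 were Tbp (r = 0.76, rho = 0.26) and Gusb, which encodes the lysosomal enzyme beta-glucuronidase (r = 0.69, rho = 0.37). Tbp was at 0.71, 0.60 and 0.65 log2 units in sham and 1.12, 0.82 and 0.68 in tMCAO. Gusb was at 0.35, 0.23 and 0.33 in sham and 0.96, 0.68 and 0.66 in tMCAO. Both were highest on tMCAO replicate 1, the array on which Hsp90ab1 was highest, and rho was well under r for both. Least like Hsp90ab1 among the 13 by r was Gapdh (r = -0.83, rho = -0.49). The order by rho was different: G6pd2 had the lowest rho with Hsp90ab1 (-0.83) and the highest with Ppia (0.71), and B2m and Rpl13a the highest with Hsp90ab1 (0.43 each).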

How the data were processed

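The submitters' processing notes name Agilent Feature Extraction, version 11.0.1.1, for the 6 scanner tables, in which the authors deposited spot intensity on a linear scale, background-subtracted per the file headers. A table of normalized log2 values was deposited too, by a method that no source used here states; its column medians were 6.89 on every array, and each column followed its own array's log2 signal (r of at least 0.9999). It served as an alternative. Signals were log2-transformed and each array's 75th percentile over its 61500 spots that were not controls was subtracted. Outlier-marked spots were dropped and the other spots of a probe averaged; 15 negative probes were left out. A probe was tested if well above background on at least 3 of 6 arrays with at least 2 values per group. The groups were compared with limma's two-sided moderated test (version 3.58.1, lmFit then eBayes, under R 4.3.3). P-values were adjusted by Benjamini-Hochberg over every tested probe, the threshold was 0.05, and the code was checked on simulated data. Single values per array were compared by exact two-sided permutation tests. For normexp, with an offset of 50, median signals were used because no mean signal was in the tables. All 15 accessions received a symbol through a RefSeq table of GRCm38.p6; no coordinates are given because the array design is on another build. Tables were read with data.table (version 1.17.8) and figures were drawn with matplotlib 3.10.9. The members and lists were chosen with earlier results of these data known. By rule, both members were described, with the 2 other accession-named genes most like and the 1 least like each by Pearson's r. The count of brighter probes, the fit with no scaling and the fit with the array code were added after seeing the data. The labels do not say more of the replicates than 3 independent experiments, and p-values measure the spread between these samples.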

Additional observations from a re-analysis of the deposited data

How the results depend on the processing

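Over 22 alternative settings, the difference of Hsp90ab1 stayed above 0 (0.04 to 0.48 log2 units) and outside the threshold (limma, adjusted p from 0.304 to 0.861). That of Ppia stayed below 0 in all but the fit with no scaling, where it was 0.21, and outside the threshold in each (limma, adjusted p from 0.225 to 0.934). Leaving out 1 array gave 0.06 to 0.23 for Hsp90ab1, -0.15 to -0.03 for Ppia and 0.088 to 0.37 for their difference within the array, which ranged over the same values across all its 16 settings (exact permutation p from 0.1 to 0.7). The number of probes above Hsp90ab1 differed by -92.5 to 33.5 without 1 array and turned positive without sham replicate 1 (1.17) or tMCAO replicate 1 (33.5). The 630 changed probes became 370 with normexp, 263 with no filter on dim probes, 388 with the replicate block, 1292 with no scaling, and 60 to 847 without 1 array. Little pairing by replicate number was seen: deviations from the group mean correlated at 0.02, 0.09 and 0.13 for replicates 1, 2 and 3. Of the 6 arrays, 3 correlated best with their own number, and so few arrays cannot exclude pairing. With the replicate block the differences were 0.16 for Hsp90ab1 and -0.11 for Ppia (limma, adjusted p = 0.573 and 0.67), and 0.27 between them (exact permutation p = 0.5). No block for scan could be fitted, since all arrays share 1 scan. Every spot of both genes was well above background and unsaturated, and whether signals were compressed below saturation was not tested.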

Other observations

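Because Ppia is often used as a reference gene, the other named genes were also expressed relative to Ppia and to Hsp90ab1 on the same array. For 12 of them with a value on every array this gave 24 comparisons, none of which can go below an exact permutation p of 0.1. Their smallest Benjamini-Hochberg adjusted value was 0.267 (exact permutation, n = 3 each), so none passed. Relative to Ppia, 8 of the 12 were higher in tMCAO, where 58.8% of all tested probes had a log2 difference above that of Ppia. For 4 of these 8 genes the groups did not overlap: B2m (0.66 log2 units), Gusb (0.57), Tfrc (0.38) and Tbp (0.33). Without a reference gene, on the scale of the main test, 24.6% of all tested probes had groups that did not overlap. The share of all tested probes without overlap relative to Ppia or to Hsp90ab1 was not computed. Genes set against the same reference gene share its levels, so their overlaps are not separate results. Relative to Hsp90ab1, 4 of the 12 were higher, again B2m, Gusb, Tfrc and Tbp. Of all tested probes, 21.3% had a log2 difference above that of Hsp90ab1. The groups did not overlap for B2m (0.40 log2 units) and Gusb (0.30). They also did not overlap, in the other direction, for Tuba1b (-0.37), Rpl13a (-0.27) and Nono (-0.18). Groups overlapped for Tbp and Tfrc relative to Hsp90ab1, at 0.07 and 0.12 log2 units. The choice between the 2 folding genes as reference thus moved each of these 12 genes by 0.27 log2 units, which is by construction the difference between their own changes.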
